A study of Mus musculus with 13 samples.

Results

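Cells with abundant transthyretin (Ttr) transcript were collected from single-cell RNA libraries of mouse embryos and described as possible visceral endoderm and hepatic cells. A barcode was taken as a member when it held at least 2000 unique molecular identifiers (UMIs, 1 per captured transcript) and 500 genes, at least 10 UMIs of Ttr, and at least 5 UMIs of the carrier genes Rbp4, Apoa1 and Apom together. This gave 136 members among 34605 barcodes past the depth floors in 3 embryo libraries, of 76191 such barcodes in all 10 matrices. The E8.5 library, replicate 2 of that stage, held 76 members among 5657 barcodes (1.34%, exact 95% Clopper-Pearson interval 1.06 to 1.68%). The E10.5 libraries held 33 of 14667 in replicate 1 (0.225%, 0.155 to 0.316%) and 27 of 14281 in replicate 2 (0.189%, 0.125 to 0.275%). All intervals cover counting error only.

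The study dissociated wild-type C57Bl/6J mouse embryos at E8.5 and E10.5, with the head and limbs cut off, and hearts at later stages, to follow the cells of the cardiac conduction system. No group carried an engineered allele or a treatment, and how many embryos each library holds is not given in the sources used here. E8.5 is represented by 1 library and E10.5 by 2, so stage and library cannot be told apart, no test was made, and every difference is given as both values with counting intervals. The heart libraries were used only as a comparison by the same rule.

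The visceral endoderm is the outer layer of the early embryo. It later lines the yolk sac, takes up proteins from outside through the receptor complex of cubilin, amnionless and megalin, and secretes carriers and lipoproteins such as transthyretin, retinol-binding protein, apolipoproteins and alpha-fetoprotein before the embryo has a liver. The liver arises from the ventral foregut endoderm, whose hepatoblasts switch on many of the same secreted proteins together with albumin, under factors such as Hhex, Prox1, the forkhead factors FOXA and HNF4A. The rule therefore selects by a shared product and not by origin.

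Summed over each library, the matrices held 151735273 UMIs at E8.5, and 259041468 and 254118869 UMIs in E10.5 replicates 1 and 2. Members had a median of 24420 UMIs at E8.5 (2456 to 78394), 26132 in E10.5 replicate 1 (9962 to 52299) and 21022 in E10.5 replicate 2 (6916 to 46059). The other barcodes had medians of 24516, 14543 and 14935.5 UMIs. The E10.5 members were thus deeper than their neighbours, and the E8.5 members were not. The mitochondrial share had a median of 2.40% in members at E8.5, with 11 of 76 above 5%, and 1.72% and 1.47% in the E10.5 libraries, with 0 members above 5%. No member barcode was shared between libraries as a member. A doublet caller marked 2 of 76, 7 of 33 and 1 of 27 members, against 4.53, 11.7 and 11.4% of all barcodes in these libraries.

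The values that chose the members are given as a description. At E8.5 the lowest, median and highest Ttr counts per member were 10, 55.5 and 245 UMIs. In E10.5 replicate 1 they were 10, 26 and 88 UMIs, and in replicate 2 they were 11, 25 and 188 UMIs. Ttr, the plasma carrier of thyroxine and of the retinol carrier, therefore had its highest median per cell at E8.5, with overlapping ranges. The 3 carrier genes together had medians of 51, 45 and 28 UMIs. The retinol carrier Rbp4 had medians of 22.5, 33 and 27 UMIs, whereas Apoa1, the main protein of high-density lipoprotein, had 7, 3 and 1, and Apom, a lipoprotein that binds sphingosine 1-phosphate, had 6.5, 8 and 4.

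Ttr was lower in the other barcodes by the rule itself, so these values are given as a description. At least 1 Ttr UMI was found in 5.29% of other barcodes at E8.5, 0.984% in E10.5 replicate 1 and 1.11% in replicate 2. In barcodes with at least 3 UMIs of the neuronal tubulin Tubb3, which should lack the gene, the shares were 5.59% of 143, 0.345% of 870 and 0.694% of 864, at median depths of 31031, 13464 and 13366 UMIs. Summed members held Ttr at 2544, 1157 and 1458 CPM (a gene's UMIs scaled to the same total in each library), against 94.5, 6.31 and 6.42 CPM in barcodes of at most 100 UMIs, which hold free RNA. The heart libraries held 0 members among 41586 barcodes, which by a floor of 3 counts allows a share of up to 0.00721%.

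**Figure D1:**
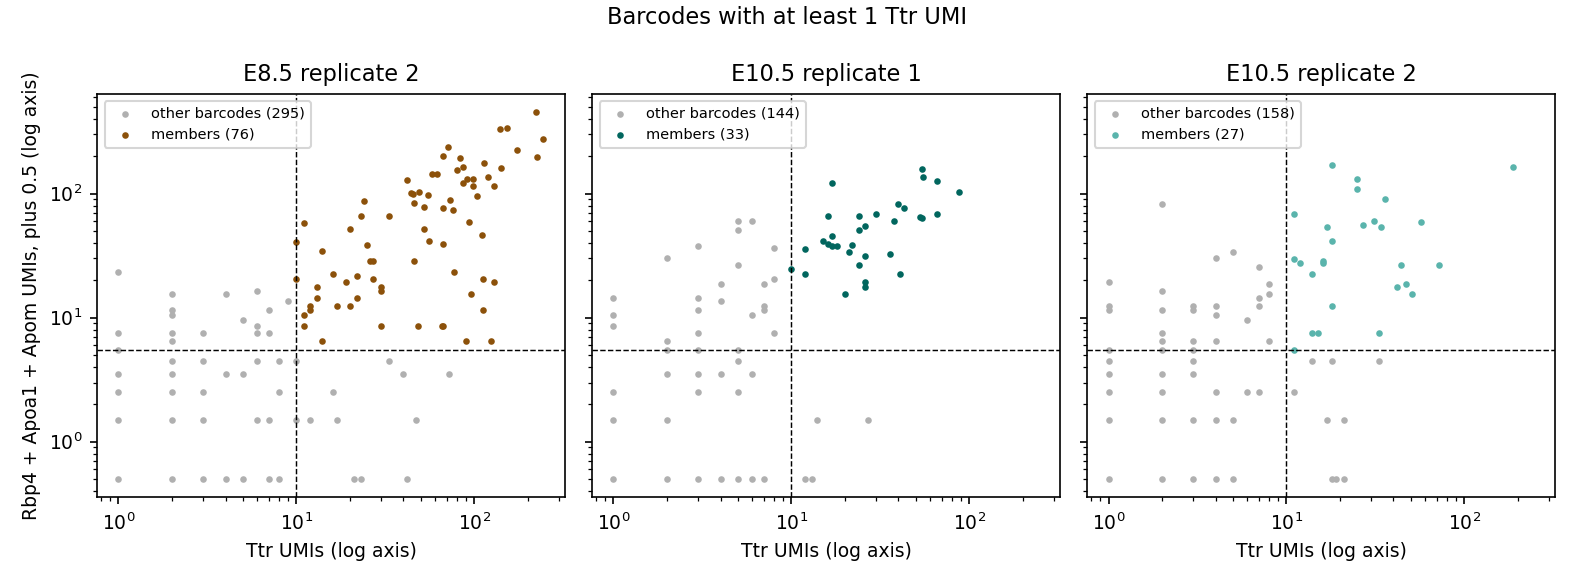
Ttr UMIs (horizontal, log axis) against the UMIs of Rbp4, Apoa1 and Apom together plus 0.5 (vertical, log axis) for every barcode with at least 1 Ttr UMI in each library, with the thresholds as dashed lines. By the rule, the 76, 33 and 27 members fill the upper right, and most of the 295, 144 and 158 other barcodes have under 10 Ttr UMIs.

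The rule left out barcodes just below its thresholds. With at least 10 Ttr UMIs but under 5 carrier UMIs there were 14 barcodes at E8.5, 4 in E10.5 replicate 1 and 9 in replicate 2. The 14 at E8.5 held Dlk1, an imprinted Notch-like surface protein of hepatoblasts, at 351 CPM in 12 of 14, and the liver and foregut homeobox gene Hhex at 159 CPM in 7 of 14, with 0 UMIs of Cubn. The 4 and 9 at E10.5 held Dlk1 at 827 and 1198 CPM, also with 0 UMIs of Cubn. They held Hhex at 189 and 108 CPM, in 4 of 4 and 4 of 9. Ttr-rich cells with hepatic genes and few carrier transcripts were thus left out by the rule at both stages. Just inside, 8 E8.5 members had 5 to 9 carrier UMIs, and they held Hhex at 218 CPM in 5 of 8 and Cubn in 1. With 5 to 9 Ttr UMIs and enough carriers there were 8, 12 and 8 barcodes outside, and with 10 to 14 there were 11, 3 and 6 members inside. At E10.5 these barcodes differed across the threshold, with Afp at 171 and 197 CPM outside against 954 and 850 CPM inside, and Dlk1 at 375 and 474 CPM outside against 2544 and 2468 CPM inside, in replicates 1 and 2.

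Genes that separate the visceral endoderm from the liver serve to check the label. Albumin (Alb), the main plasma protein of liver, and alpha-fetoprotein (Afp), its fetal relative made by yolk sac and liver, stand for the secretory side. Cubilin (Cubn) and amnionless (Amn), the partners of an endocytic receptor for vitamin B12 and albumin, stand for uptake by the visceral endoderm. The 250 bases before the start of each of these 4 genes are shown because these genes stand for secretion and uptake in the kinds of member described next. They were taken from RefSeq on GRCm38.p6, each in the direction of its gene, at chr5:90460620-90460869 (plus strand) for Alb, chr5:90490464-90490713 (plus) for Afp, chr2:13491877-13492126 (minus) for Cubn and chr12:111270846-111271095 (plus) for Amn. Capitals mark matches on either strand to the FOXA letters TGTTTAC or TGTTTGC, the HNF1 letters GTTAAT-N-ATT or the HNF4 letters CAAAGTCC.
Alb: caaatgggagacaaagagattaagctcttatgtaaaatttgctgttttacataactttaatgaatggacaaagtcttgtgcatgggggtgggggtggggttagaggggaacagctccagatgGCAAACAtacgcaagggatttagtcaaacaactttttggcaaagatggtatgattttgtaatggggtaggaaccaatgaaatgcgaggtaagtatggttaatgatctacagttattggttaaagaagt
Afp: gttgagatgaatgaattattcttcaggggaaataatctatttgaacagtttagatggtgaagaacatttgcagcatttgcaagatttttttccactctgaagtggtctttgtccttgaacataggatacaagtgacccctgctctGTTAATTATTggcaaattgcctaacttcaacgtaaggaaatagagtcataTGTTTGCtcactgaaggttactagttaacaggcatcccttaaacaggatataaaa
Cubn: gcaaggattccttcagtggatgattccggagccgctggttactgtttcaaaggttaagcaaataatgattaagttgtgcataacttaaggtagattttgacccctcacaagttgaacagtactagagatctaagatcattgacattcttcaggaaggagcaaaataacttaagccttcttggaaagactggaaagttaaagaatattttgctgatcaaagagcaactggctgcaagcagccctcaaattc
Amn: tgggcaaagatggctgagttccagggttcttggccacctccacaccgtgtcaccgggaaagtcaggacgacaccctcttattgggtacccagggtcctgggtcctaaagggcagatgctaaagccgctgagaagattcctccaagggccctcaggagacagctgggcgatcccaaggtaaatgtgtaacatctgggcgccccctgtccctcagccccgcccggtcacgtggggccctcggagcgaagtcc

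The Alb promoter held 1 FOXA match and the Afp promoter held 1 FOXA and 1 HNF1 match, while Cubn and Amn held none of these letters. Among the 17 of 23 hepatoblast-list genes with a RefSeq promoter, 9 held a FOXA match (52.9%), namely Afp, Ahsg, Alb, Apoh, Dlk1, Prox1, Serpina1a, Serpina1b and Serpina1c. Among 14 of 15 visceral endoderm genes only Afp did (7.14%), and the share over 27025 genes was 8.22%. Outside these lists, the promoters of Apoa1, which the rule used, and Apob, both called lower at E10.5, also held FOXA matches. The Serpina1 genes are near-identical copies, so their promoters are not independent. CEBP letters (TTGCNNAA) were found in 41.2% of the hepatoblast and 35.7% of the visceral endoderm promoters against 10.8% of all genes, and GATA letters (AGATAA) in 11.8% and 14.3% against 11.4%. HNF4 letters were found in neither list, and in 1.38% of all genes. A FOXA match that ends in TTGC can share those letters with a CEBP match. These are matches of letters, and binding was not measured.

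The E8.5 members were not of 1 kind. They fell into 4 clusters of 25, 20, 18 and 13 cells when grouped on all genes but the 4 of the rule. With a coarser setting they fell into 3 of 38, 20 and 18 cells, and the 4 clusters are used here. Clusters are described with no test, since the genes described also made them. Cluster 2 (20 cells) and cluster 3 (18 cells) carried visceral endoderm genes. At least 10 UMIs of Amn, Cubn, Apoa4, Rhox5 and Trap1a together were held by 37 of 38 cells in these clusters and by 4 of 38 in clusters 1 and 4.

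In cluster 2, 6 of the 10 fixed visceral endoderm markers stood at least 2-fold above the other members, namely Afp, Amn, Cubn, Lrp2, Dab2 and Apoa4. Cubn was found in 20 of 20 cells, with 9 to 130 UMIs per cell and a median of 28.5. Lrp2 is megalin, the large uptake receptor, and Dab2 is its clathrin adaptor. At that fold also stood 4 of the 14 hepatoblast markers (Afp, Trf, Tbx3 and Hnf4a) and 2 of the 5 choroid plexus markers (Folr1 and Clic6). So did 2 of the 5 mesenchyme markers (Pdgfra and Twist1) and 1 of the 11 erythroid markers (Hba-a1). With these exceptions, the cluster is called visceral endoderm-like. Among its leading genes were the glucose transporter Slc2a2 (225 CPM against 16.7 in other members), the lysine-degrading enzyme Aass (67.3 against 3.49) and the extracellular superoxide dismutase Sod3 (46.1 against 2.09). Its mitochondrial share was the highest of the clusters, with a median of 5.00%, and the part of this in the cluster's genes was not tested.

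Cluster 3 held 5 of the 10 markers at that fold, Amn, Apoa4, Rhox5, Trap1a and Sox17, and is also called visceral endoderm-like. The mesenchyme marker Pdgfra stood at that fold too. Rhox5, an X-linked homeobox gene of extraembryonic lineages, was found in all 18 cells with a median of 20 UMIs and a highest of 82, at 1032 CPM against 323 CPM in cluster 2. Cubn was found in 11 of 18 cells, at 522 CPM against 1306 CPM in cluster 2. Its partner Amn was at 475 CPM against 386 CPM, so only Cubn of this pair was lower in cluster 3. The transcriptional co-factor Cited1 (2265 CPM against 236 in other members), the water channel Aqp8 (428 against 30.7), the fatty acid carrier Fabp3 (368 against 11.3) and the germ-cell gene Dppa5a (97.0 against 3.76) led this cluster. Fabp3 was found in 8 of 18 cells, and 1 of them held 93 of its UMIs. Apoe, the lipid carrier, reached 5389 CPM here against 2169 CPM in cluster 2. Cluster 3 was the shallowest, with a median of 14512 UMIs.

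Cluster 1, the largest with 25 cells, was led by Sfrp5, a secreted Wnt inhibitor (135 CPM against 2.21 in other E8.5 members), and Nepn, a leucine-rich proteoglycan (879 CPM against 23.6). Nepn was found in 19 of 25 cells, with a median of 8 and a highest of 141 UMIs. The keratin Krt19 (343 CPM against 14.8) and the tight junction protein Cldn3 (46.6 against 1.48) were also among its leading genes, and Epcam, an epithelial adhesion protein, stood at 586 CPM. Shh of the other endoderm list, Col1a2 of the mesenchyme list and Myl7 of the cardiomyocyte list passed the 2-fold mark. None of the visceral endoderm markers and only Onecut2 of the hepatoblast markers did, so the cluster is left unnamed. Its cells still held Ttr at 1568 CPM and Rbp4 at 1604 CPM, but little Apoa1 (134 CPM), Apom (118 CPM) or Apoa2 (4.66 CPM).

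Cluster 4 (13 cells) is called hepatoblast-like, but it was not uniform. At least 2-fold above the other members stood 5 of the 14 hepatoblast markers, Fgb, Serpina1b, Dlk1, Prox1 and Hhex. Sox2, on the neural and other endoderm lists, and the mesenchyme marker Col1a2 did so too. Of the UMIs of all E8.5 members the cluster held 388065 of 1998039. For Afp it held 71 of 600, for Trf 5 of 125 and for Hnf4a 3 of 118. Hhex was found in 9 of its 13 cells with 1 to 19 UMIs, a median of 10. These 9 cells held Ttr at 46 to 129 UMIs (2968 CPM), Dlk1 at 7 to 46 UMIs (863 CPM), the hepatic homeobox factor Prox1 in 8 of 9, and the antiprotease Serpina1b in 8 of 9. The other 4 cells held 0 Hhex, 11 to 22 Ttr UMIs and 4 Dlk1 UMIs in all, and carried 534 of the 562 UMIs of the retinoic acid binding protein Crabp1 in the cluster, of which 2 cells had 282 and 230. Serpina1b, Ambp and Itih2, which are liver products, were at 0 UMIs in them. The cluster's name thus fits the 9 cells with Hhex, a split made after the values were seen.

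Other endoderm genes were also found among the E8.5 members. Shh stood at least 2-fold above the other members in cluster 1, Hnf4a in cluster 2 and Sox2 in cluster 4. Cdx2, the hindgut factor, was found in 33 of 76 members with at most 8 UMIs, Shh in 12 and Pdx1, of pancreas and duodenum, in 8 with at most 3 UMIs, while the lung and thyroid factor Nkx2-1 was found in 0 of 76. Summed over members, Cdx2 stood at 34.0 CPM against 14.6 in free RNA and 18.1 in other barcodes, and Shh at 16.02 against 2.23 and 2.48. The foregut and liver factor Foxa2 was found in 46 of 76 and Hnf4a in 35 of 76.

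At E10.5 the 60 members fell into 3 clusters, which both libraries filled. Clusters 1 (19 and 11 cells in replicates 1 and 2) and 3 (8 and 4 cells) each held 11 of the 14 fixed hepatoblast markers in at least 25% of cells, where cluster 2 held 9. Of the 14, Trf alone was at least 2-fold above the other E10.5 members in cluster 1. Clusters 1 and 3 are pooled in what follows. Their leading genes differed by low counts, for example Gm26737 in cluster 3 (75.3 CPM against 0.808). Cluster 2 (6 and 12 cells) was led by Nepn (172 CPM against 0 in the other members) and Sfrp5 (125 against 0.891), the same 2 genes that led cluster 1 at E8.5, and by the antioxidant enzyme Gpx3 (570 against 26.7) and the mucosal peptide Tff3 (169 against 8.02).

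Cluster 2 at E10.5 held gut and liver genes. At least 2-fold above the other E10.5 members stood Cdx2, the choroid plexus markers Folr1 and Clic6, and the visceral endoderm markers Dab2 and Cldn6. Of the 22 Dab2 UMIs in the cluster, 14 lay in 1 cell. None of the 14 hepatoblast markers stood at that fold. Cdx2 or Pdx1 was found in 4 of 6 cells of replicate 1 and 6 of 12 of replicate 2, of which 1 and 1 also had at least 10 Dlk1 UMIs. Nepn and Hhex occurred in the same cell in 0 of 6 and 2 of 12. Dlk1 ranged from 1 to 161 UMIs per cell in replicate 1 and from 0 to 88 in replicate 2. No name is given to it.

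**Figure D2:**
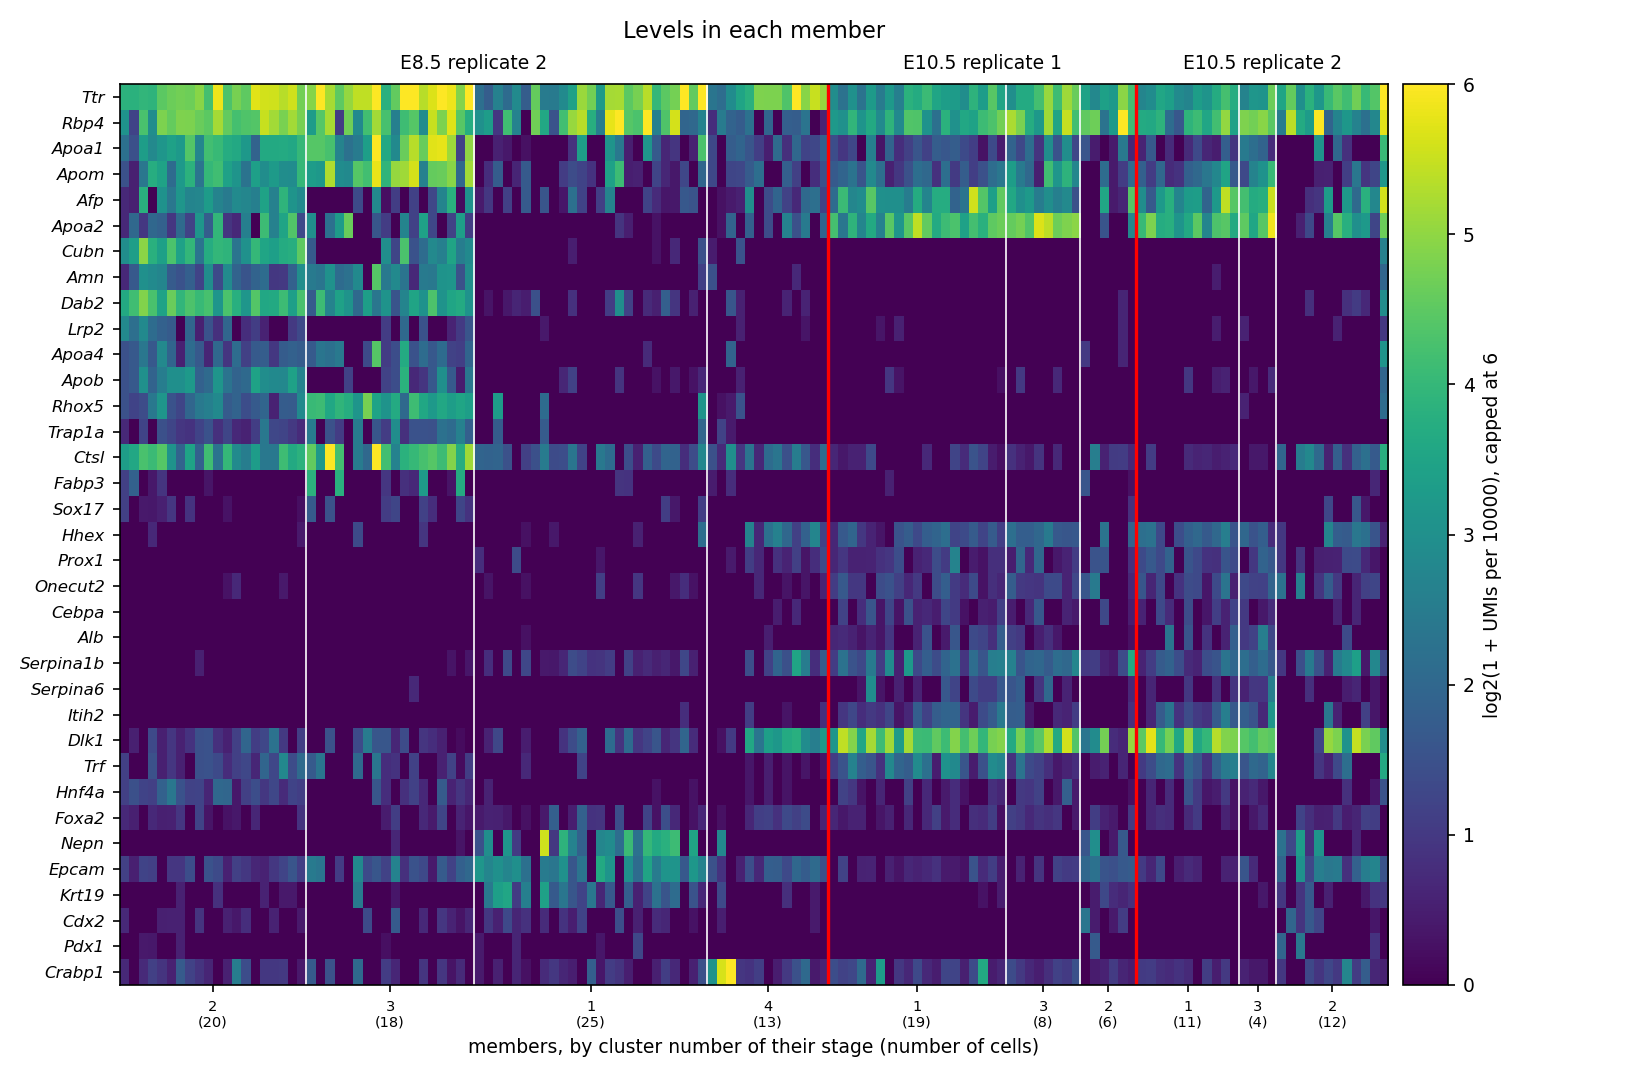
Each column is 1 of the 136 members, ordered by library and by cluster number of its stage (white lines between clusters, red lines between libraries), and each row a gene, coloured by the log2 of 1 plus UMIs scaled to a common depth, capped at 6. Cubn, Amn, Dab2, Apoa4 and Rhox5 fill E8.5 clusters 2 and 3, Nepn and Krt19 fill E8.5 cluster 1, and Apoa2, Dlk1, Hhex and Itih2 fill E10.5 clusters 1 and 3.

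Comparing the stages over all members, the E8.5 cells held more of the uptake receptor and lysosomal genes and the E10.5 cells more of the liver genes. A gene was called when both E10.5 libraries stood at least 4-fold above, or below, the E8.5 library, among genes with a mean of at least 10 CPM over the stages. Of 7031 genes tested, 80 were called higher at E10.5 (1.14%) and 201 lower (2.86%). Between the 2 E10.5 libraries the same fold separated 11 genes one way (0.156%) and 39 the other (0.555%). The calls depend on which E8.5 cells are taken: with the 38 members outside clusters 2 and 3 alone, chosen after the data were seen, 97 genes were called higher and 42 lower, and the share of lower calls went from 71.5% to 30.2%.

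Of 15 visceral endoderm genes, 14 were tested, 9 were called lower at E10.5 and 0 higher, with a median log2 fold of -3.26 against -0.13 over all tested genes. Cubn had 959 UMIs at E8.5 (480 CPM, exact Poisson interval 450.1 to 511), 0 in E10.5 replicate 1 and 11 in replicate 2 (17.8 CPM). It was at least 146-fold lower in replicate 1, against a floor of 3 counts, and 27.0-fold lower in replicate 2 (15.03 to 54.3). Amn had 417, 0 and 7 UMIs, at least 63.3-fold and 18.5-fold lower. The extraembryonic gene Rhox5 had 645, 0 and 8 UMIs, at least 98.0-fold and 24.99-fold lower, and Trap1a, an X-linked gene of the same lineages, had 210, 0 and 0 UMIs, at least 31.9-fold and 21.7-fold lower. The members that led this difference were those of E8.5 clusters 2 and 3, as the heatmap of single members shows.

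Most UMIs of several of these genes in E10.5 replicate 2 came from 1 barcode. It held 11 of 11 Cubn UMIs, 16 of 16 of the lipoprotein gene Apoa4, 14 of 21 Dab2, 6 of 7 Amn, 7 of 8 Rhox5 and 2 of 5 Lrp2 UMIs, with 188 Ttr, 112 Rbp4, 101 Afp and 0 Alb UMIs among 21022. Without it, replicate 2 held Cubn and Apoa4 at 0 CPM, Amn and Rhox5 at 1.67 CPM each and Dab2 at 11.7 CPM, and Ttr went from 1458 to 1195 CPM. The barcode was singled out after its values were seen. At least 10 UMIs of Amn, Cubn, Apoa4, Rhox5 and Trap1a together were held by 41 of 76 E8.5 members, 0 of 33 and 1 of 27.

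The uptake and lysosome list went the same way, with 9 of 16 genes lower, 0 higher and a median log2 fold of -2.72. Besides Cubn, Amn, Lrp2 and Dab2, which it shares with the visceral endoderm list, the called genes were lysosomal proteases. None of the 9 was still called against the E8.5 members outside clusters 2 and 3. Cathepsin L (Ctsl) stood at 806, 64.8 and 166 CPM, which is 12.4-fold and 4.84-fold lower at E10.5. Cathepsin H (Ctsh) stood at 349, 6.59 and 19.4 CPM, 52.9-fold and 18-fold lower. Legumain (Lgmn), which processes cathepsins, stood at 337, 6.59 and 50.1 CPM, and Ctsb and Ctsz were 4.43-fold to 8.65-fold lower. In the other barcodes Ctsl was at 96.6, 52.6 and 53.8 CPM, so the E8.5 members stood above their neighbours and the E10.5 members did not stand so far above theirs.

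Of 18 genes of lipoproteins and lipid transport, 13 were tested, 2 were higher and 6 lower at E10.5, with a median of -1.68. Apob, the scaffold of secreted lipoproteins, stood at 193, 8.79 and 21.0 CPM, 22-fold (11.05 to 51.3) and 9.20-fold (5.32 to 17.4) lower. The barcode with Cubn held 6 of the 13 Apob UMIs of replicate 2, which stood at 11.70 CPM without it. Fabp1, the liver and gut fatty acid carrier, had 231, 3 and 0 UMIs, 35.1-fold (11.9 to 171) and at least 23.9-fold lower. Apoa4, Apoc2, Apoc3 and Fabp3 were the other genes called lower. Against the E8.5 members outside clusters 2 and 3, the log2 folds of Apob, Apoa4, Apoc2 and Apoc3 averaged 0.35, 0.0810, 0.46 and 0.83. Apoc2 and Apoc3 rested there on the floor of 3 counts. For Apob and Apoa4 the 2 E10.5 libraries differed in sign. The barcode with Cubn held all 16 Apoa4 UMIs of replicate 2. These values thus give no measured rise at E10.5. Apoa2, the second protein of high-density lipoprotein, went the other way with 250.3, 1574 and 1269 CPM, 6.29-fold (5.68 to 6.98) and 5.07-fold (4.53 to 5.69) higher. The cholesterol exporter Abca1 was 11.2-fold and 10.1-fold higher on 8, 41 and 25 UMIs. Apoe stood at 1894, 524 and 665 CPM, 3.61-fold and 2.85-fold lower, and was not called.

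The hepatoblast list showed the opposite pattern, with 18 of 23 genes tested, 10 called higher at E10.5, 0 lower and a median log2 fold of 2.32. Of these calls, Serpina1a, Serpina1b and Prox1 were lost against the E8.5 members outside clusters 2 and 3. Alb had 2 UMIs in 2 of 76 members at E8.5, 54 UMIs in 21 of 33 in E10.5 replicate 1 and 56 UMIs in 10 of 27 in replicate 2. These are 1.00, 59.3 and 90.4 CPM, 59.3-fold (15.6 to 502) and 90.3-fold (23.9 to 764) higher at E10.5. An E8.5 member held at most 1 Alb UMI, and the highest E10.5 members held 13 and 16. Afp stood at 300.3, 1033 and 1147 CPM, 3.44-fold (3.1 to 3.82) and 3.82-fold (3.42 to 4.26) higher, under the 4-fold mark in both libraries. It was found in 56 of 76, 31 of 33 and 23 of 27 members. In the Tubb3 barcodes, Afp was found in 0.699% at E8.5 and 0.690% in E10.5 replicate 1, and Alb in 0% and 0.115%.

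Dlk1 stood at 189, 2063 and 2085 CPM, 10.9-fold (9.78 to 12.2) and 11.05-fold (9.84 to 12.4) higher at E10.5. In the other barcodes of the same libraries Dlk1 also differed, at 69.4, 284 and 292 CPM. Its stage difference was thus not limited to the members. The liver and endoderm factor Prox1 had 27, 87 and 69 UMIs (7.07-fold and 8.25-fold higher), in 12 of 76, 27 of 33 and 22 of 27 members. The cut homeobox factor Onecut2 had 20, 102 and 82 UMIs (11.2-fold and 13.2-fold), and in other barcodes it stood at 3.83, 21.4 and 20.6 CPM. Cebpa, a factor of differentiating hepatocytes, had 2, 54 and 26 UMIs, 59.3-fold (15.6 to 502) and 41.9-fold (10.501 to 365) higher.

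Of the 23 liver and endoderm transcription factors, 16 were tested, 5 were higher (Cebpa, Cebpb, Prox1, Onecut2 and Nr5a2), Gata4 was lower, and the median was 0.28. Hhex stood at 52.1, 181 and 229 CPM, 3.48-fold (2.71 to 4.49) and 4.41-fold (3.40 to 5.73) higher, and was not called. Foxa2 stood at 50.05, 52.7 and 48.4 CPM and Hnf4a at 59.1, 40.6 and 42.0 CPM, with intervals that overlapped across the libraries. Visceral endoderm and liver both use these factors. Against clusters 1 and 3 at E10.5, however, the 9 E8.5 cells with Hhex held 3 Hnf4a UMIs, 4.18-fold (1.32 to 21.2) and 4.55-fold (1.34 to 23.99) below, and Foxa2 was 1.89-fold and 2.90-fold lower at E10.5. Gata4 had 72, 2 and 5 UMIs, 16.4-fold (4.38 to 138) and 4.46-fold (1.83 to 14.2) lower. Its call was lost with Ttr of at least 5 UMIs, with cells thinned to 5000 UMIs, and outside E8.5 clusters 2 and 3. The calls of Prox1 and Nr5a2 were also lost outside those clusters.

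Among 23 protease inhibitors and other secreted plasma proteins, 11 were tested and 8 were higher at E10.5, with 0 lower and a median of 2.82. Of these calls, Serpina1a, Serpina1b, Serpina1e and Ambp were lost against the E8.5 members outside clusters 2 and 3. Itih2, a hyaluronan-binding inhibitor subunit, had 9, 111 and 87 UMIs, 27.1-fold (13.8 to 60.8) and 31.2-fold (15.7 to 70.5) higher. The bikunin precursor Ambp stood at 44.5, 303 and 328 CPM, 6.81-fold and 7.36-fold higher. The corticosteroid carrier Serpina6 had 1, 71 and 28 UMIs, 156-fold (27.1 to 6241) and 90.3-fold (14.9 to 3694) higher, an interval set by the single E8.5 UMI. Serpina1a, Serpina1b and Serpina1c, copies of the elastase inhibitor among which reads may be split uncertainly, were 4.57-fold to 13.6-fold higher. Transferrin (Trf) was 3.76-fold and 3.64-fold higher and was not called.

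Most clotting genes were at the edge of detection. Of 19, 8 were tested, Serpind1 and Serpinf2 were higher and Tfpi lower. Tfpi had 80, 2 and 6 UMIs, 18.2-fold (4.88 to 153) and 4.13-fold (1.82 to 11.6) lower. Its call was lost with a ceiling of 5% mitochondrial UMIs, without the marked doublets and with the mean of the CPM of each cell. Thinning to 5000 UMIs and leaving out E8.5 clusters 2 and 3 lost it as well. Heparin cofactor Serpind1 had 0, 26 and 19 UMIs, at least 19.02-fold and 20.4-fold higher, and the plasmin inhibitor Serpinf2 stood at 32.5, 196 and 265 CPM. The fibrinogen chain Fgb was already present at E8.5, at 76.1, 118 and 126 CPM, 1.55-fold and 1.66-fold higher at E10.5. F9, F11 and F13b were at 0 UMIs in all 3 libraries. Of 15 genes of amino acid and urea metabolism 4 were tested and 0 called, and Tat, Hgd, Mat1a and Sds were at 0 UMIs in every library and so not detectable at this depth.

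**Figure D3:**
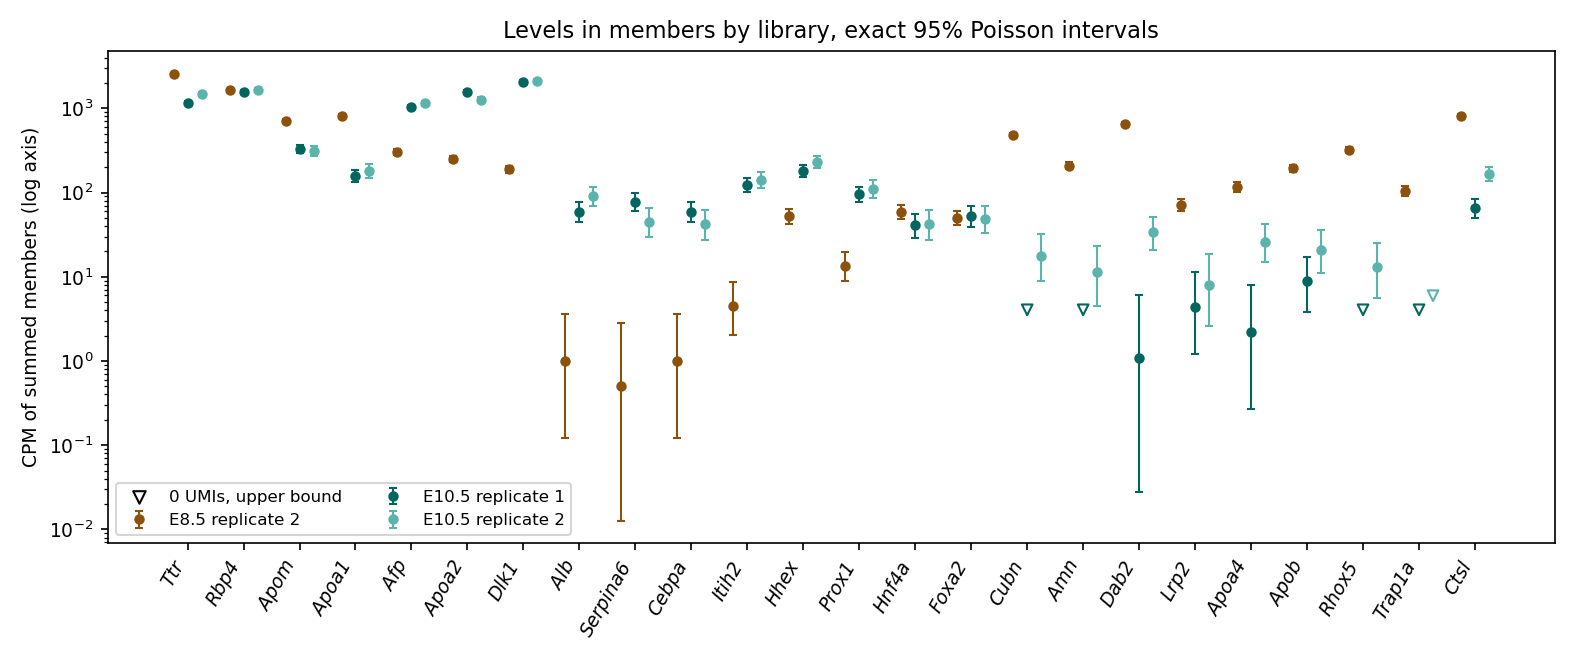
CPM of summed members (vertical, log axis) for 24 genes in E8.5 replicate 2 and the E10.5 replicates, with exact 95% Poisson intervals, and open triangles for the upper bound where 0 UMIs were counted. Alb, Serpina6, Cebpa and Itih2 lie higher in both E10.5 libraries, Cubn, Amn, Dab2 and Trap1a lower, and Rbp4, Hnf4a and Foxa2 at like levels.

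Of 16 genes of retinoid and vitamin handling 8 were tested, Rbp2 was higher, Tcn2 and Folr1 lower, and the median was -0.90. Rbp4 stood at 1639, 1568 and 1642 CPM. Of 11 iron and haem genes, 7 were tested and Hmox1, which breaks down haem, was lower on 50, 3 and 1 UMIs. Its call was lost with Ttr of at least 20 UMIs and with a ceiling of 5% mitochondrial UMIs. Thinning to 5000 UMIs and leaving out E8.5 clusters 2 and 3 also lost it. The ferritin light chain Ftl1 stood at 9942, 6599 and 7147 CPM, where the other barcodes had 3810, 5150 and 5167 CPM. Of 11 imprinted growth genes 10 were tested, Dlk1 was higher and Phlda2, a placental growth inhibitor, lower at 156, 12.1 and 30.7 CPM, but Phlda2 also stood at 57.5, 3.60 and 3.67 CPM in the other barcodes. Of 12 epithelial genes 11 were tested and Krt19 was lower, with a median of -1.34 and a summed level of 2650.1, 902 and 1402 CPM. Of 15 cell cycle genes all were tested and 0 called, with a median of -0.41, and of 17 signal ligands 6 were tested and 0 called.

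Some of the largest folds, ranked by the smaller of both libraries, lay outside the lists. Gulo, the last enzyme of vitamin C synthesis, had 0, 35 and 40 UMIs, at least 25.6-fold and 43.0-fold higher. Pcolce2, a collagen-processing enhancer, was 35.1-fold and 34.8-fold higher, the unannotated gene Gm43861 22.5-fold and 19.4-fold on 4, 41 and 24 UMIs, and the membrane receptor gene Paqr9 19.2-fold and 19.7-fold. D930028M14Rik was 19.3-fold and 21.9-fold higher, but it also stood at 0.176, 25.5 and 21.9 CPM in the other barcodes. Among the lower genes, the sulphate transporter Slc13a4 had 427, 0 and 5 UMIs, at least 64.8-fold and 26.5-fold lower, and threonine dehydrogenase Tdh had 261, 4 and 4 UMIs, 29.7-fold and 20.2-fold lower.

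**Figure D4:**
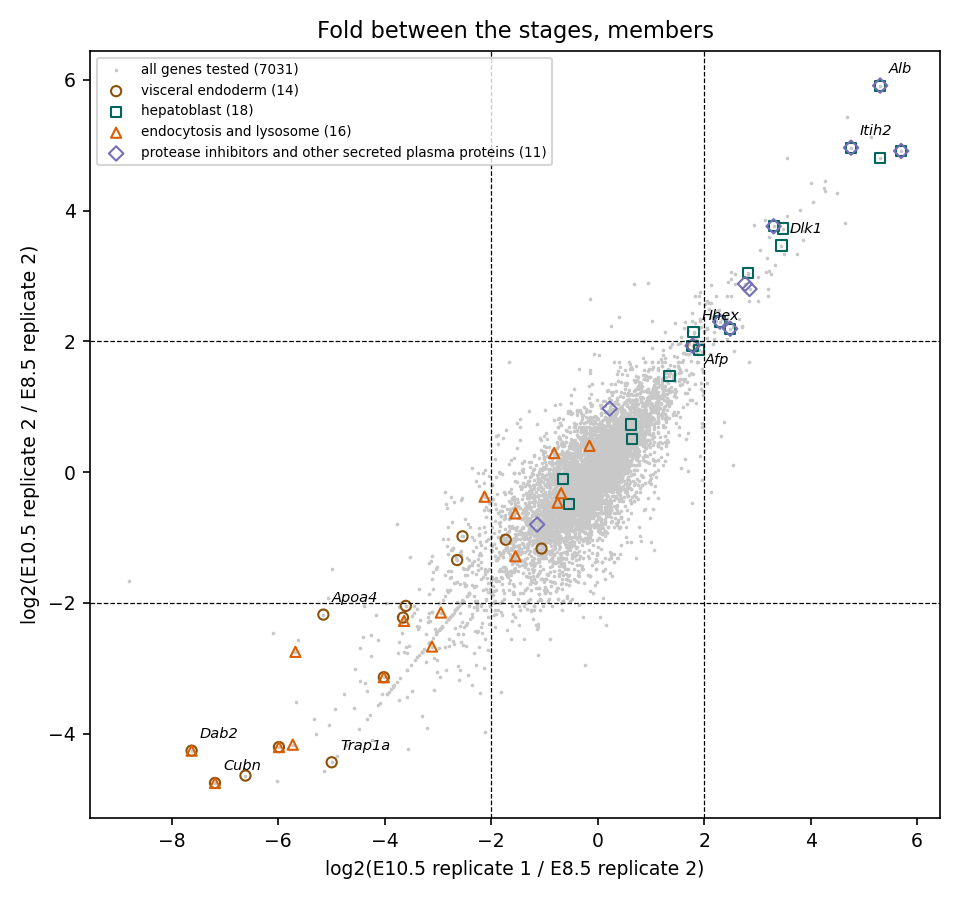
Log2 fold of E10.5 replicate 1 (horizontal) and replicate 2 (vertical) over E8.5 for the 7031 genes tested, counts under 3 set to 3, with the genes of 4 lists marked and dashed lines at 4-fold. Of the genes tested, 9 of 14 visceral endoderm and 9 of 16 endocytosis genes lie past the lines at the lower left, and 10 of 18 hepatoblast and 8 of 11 plasma protein genes past those at the upper right, while Afp and Hhex lie near the 4-fold corner.

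Markers of other tissues summed to less in the members than in the other barcodes for most lists. The choroid plexus list summed to more in all 3 libraries. The parietal endoderm and trophoblast list summed to more at E8.5 and in E10.5 replicate 2. The part of such markers in the stage differences was not tested. Of 7 blood and macrophage genes, 6 were at 0 UMIs at E8.5 and 7 in both E10.5 libraries, Ptprc, Tyrobp and C1qa among them. Summed CPM of the 7 globin genes was 119, 504 and 531 in members against 4070, 7610 and 8216 in other barcodes, and Hbb-y, Hba-a1 and Hba-a2 were called higher at E10.5. With the free-RNA profile subtracted, Hba-a1 and Hba-a2 were no longer called. The 8 other erythroid genes summed to 53.6, 6.59 and 6.46 CPM against 83.9, 75.0 and 73.9, and Car2 was called lower at E10.5. The 10 mesenchyme genes summed to 48.0, 84.6 and 46.8 CPM against 171, 354 and 332, and Pdgfra was called lower. The 6 endothelial genes summed to 63.1, 92.3 and 105 CPM against 111, 132 and 127, a smaller gap at E10.5 than for those lists. Most of the sum in members was 1 gene, Egfl7, at 60.6, 87.9 and 100 CPM. The 8 neural genes summed to 50.6, 59.3 and 19.4 CPM against 211, 368 and 355, and the 7 cardiomyocyte genes to 58.6, 30.8 and 35.5 CPM against 711, 259 and 277. The 6 choroid plexus genes, which matter because that tissue also makes Ttr, summed to 372, 30.8 and 58.1 CPM in members against 24.9, 22.9 and 23.1 in other barcodes. Of these, Folr1 and Clic6 were lower at E10.5 and Kl, Kcne2 and Kcnj13 were at 0 UMIs in all 3 libraries. The 9 parietal endoderm and trophoblast genes summed to 595, 111 and 228 CPM against 173, 143 and 138, with 3 tested and 0 called. Most of the E8.5 sum was the matrix protein gene Sparc at 509.5 CPM (1018 UMIs), while the placental hormone genes Prl3d1 and Prl2c2 were at 0 UMIs. A single E8.5 member held 293 UMIs of this list.

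Shares of members with a transcript were also taken at equal depth. After each cell was thinned to 5000 UMIs, which left out 3 E8.5 members and none at E10.5, Hhex was found in 12.3% of 73 members at E8.5 (exact interval 5.80 to 22.1%), 60.6% of 33 (42.1 to 77.1%) and 70.4% of 27. Without thinning, Hhex was found in 22.4% at E8.5, against 2.098% in the Tubb3 barcodes. Alb was found in 1.37% (0.0347 to 7.40%), 21.2% and 22.2% of thinned members, and Cubn in 42.5%, 0% (0 to 10.6%) and 3.70%. Cebpa was found in 0% (0 to 4.93%), 27.3% (13.3 to 45.5%) and 0% (0 to 12.8%), although its summed level without thinning was higher in both E10.5 libraries. The intervals cover cells of these libraries and not the stages.

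Matching clusters by their genes gives a closer view than the sum of all members. The 9 E8.5 cells with Hhex were set against clusters 1 and 3 at E10.5 (27 and 15 cells), as a description. Their Serpina1b level was alike, with ratios of E10.5 to E8.5 of 1.15 (0.875 to 1.53) and 0.822 (0.587 to 1.15), and so was Ambp, with 1.10 (0.812 to 1.51) and 1.01 (0.708 to 1.44). Both were called higher at E10.5 over all members. Prox1 stood at ratios of 1.29 (0.778 to 2.23) and 1.90 (1.12 to 3.36). Of the E10.5 cells in this comparison, 26 of 27 and 14 of 15 held Hhex, and the cells with Hhex in cluster 2 at E10.5 were not part of it.

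Other liver genes still differed between those cells. Apoa2 was 7.50-fold (5.84 to 9.77) and 6.64-fold (5.13 to 8.71) higher in E10.5 clusters 1 and 3, Afp 4.17-fold and 5.23-fold, Onecut2 5.92-fold and 6.75-fold, and Trf 14.7-fold and 14.6-fold. Alb had 1 UMI in the 9 cells, and was 18.5-fold (3.17 to 743) and 37.3-fold (6.41 to 1502) higher at E10.5. Apoc1, a small lipoprotein gene, had 2 UMIs and was 30.3-fold (8.26 to 252) and 35.2-fold (9.48 to 295) higher. Dlk1 was 2.52-fold and 2.80-fold higher. In the other direction, Epcam was 3.76-fold and 4.26-fold lower at E10.5 and the keratin Krt18 5.46-fold and 7.62-fold. The fibrinogen chain Fgb stood at ratios of 0.600 (0.424 to 0.855) and 0.625 (0.413 to 0.941). Of the genes on which the cells were chosen, Ttr stood at ratios of 0.375 and 0.319, Apoa1 at 0.991 and 0.845, Apom at 2.74 and 3.18 and Rbp4 at 7.50 and 8.46, and these are given as a description only.

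Across all clusters, the order of Ttr was not the order of the other carriers, with the barcode that held Cubn left out of E10.5 replicate 2. Ttr stood highest in E8.5 cluster 3 (4225 CPM), then cluster 2 (2704), and cluster 4 (2188), while cluster 1 (1568) lay within the range of the E10.5 groups (947 to 1589 CPM). Apoa1 was 2151 and 1056 CPM in E8.5 clusters 3 and 2 and 97.0 to 169 CPM in every other group. With that barcode, E10.5 replicate 2 cluster 2 stood at 2201 CPM for Ttr, next to E8.5 cluster 4, and at 230 CPM for Apoa1. Rbp4 was lowest in E8.5 cluster 4 (227 CPM) and between 1312 and 2290 CPM elsewhere. Apoa2 reached 1851 and 1639 CPM in E10.5 clusters 1 and 3 and 4.66 CPM in E8.5 cluster 1. Ttr, Apoa1 and Rbp4 chose the members, so their order is a description.

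E10.5 cluster 2, led by Nepn, differed from clusters 1 and 3 of the same libraries. Nepn was found in 4 of 6 and 6 of 12 of its cells. In it, without the barcode with Cubn, Nepn was at 162 and 194 CPM, and it was at 0 UMIs in clusters 1 and 3 of both libraries. Epcam was at 246 and 406 CPM against 55.6 and 49.1 in clusters 1 and 3, and Krt18 at 841 and 708 against 122 and 87.3. The copy Serpina1c was at 207 and 177 CPM against 17.2 and 2.73, and Ambp at 621 and 531 against 238 and 218, so these plasma protein genes were not confined to the clusters richest in Alb. Alb was at 6.47 and 17.3 CPM in cluster 2 against 70.1 and 142.

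**Figure D5:**
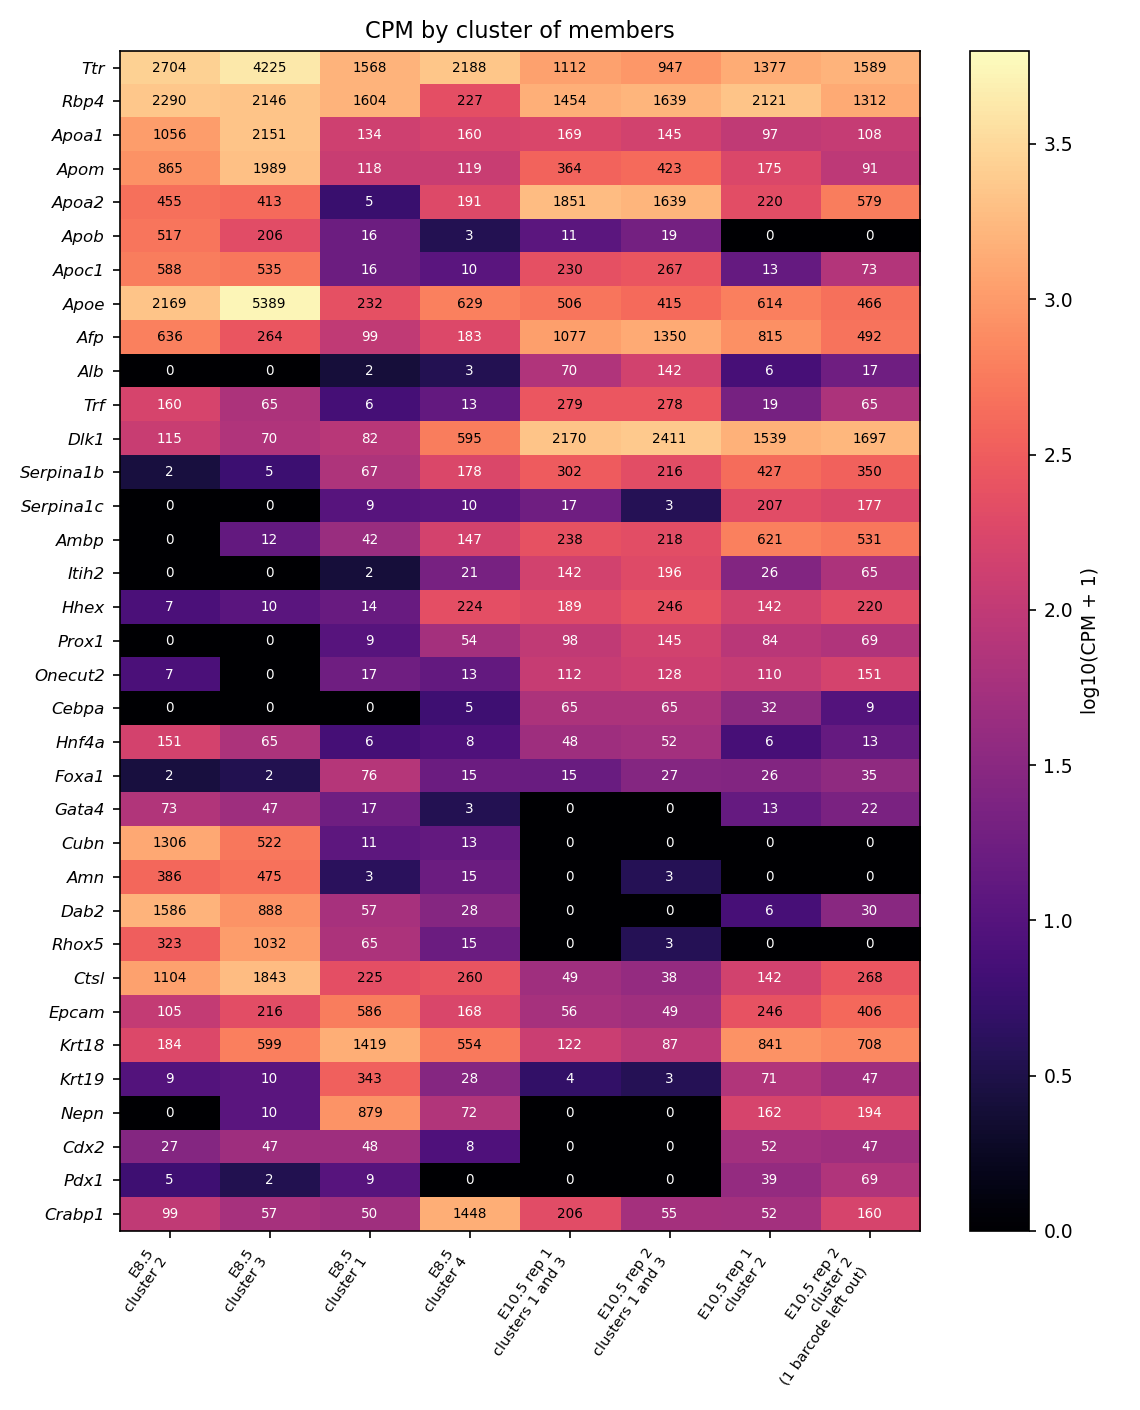
CPM of chosen genes in 8 groups of members, coloured by log10(CPM + 1) and printed in each cell, with the E10.5 groups split by library and the barcode with Cubn left out of cluster 2 in replicate 2. Cubn, Dab2 and Rhox5 are high in E8.5 clusters 2 and 3, Nepn and Krt19 in E8.5 cluster 1, and Alb, Apoa2 and Trf in E10.5 clusters 1 and 3.

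The label was therefore met in part. At E8.5, 38 of 76 members were visceral endoderm-like, the 9 of cluster 4 with Hhex carried early liver genes, and 25 were led by Nepn and Sfrp5. At E10.5, 42 of 60 members lay in clusters 1 and 3, which held hepatoblast genes, and 18 lay in cluster 2. Of these 18, 1 held at least 10 UMIs of Amn, Cubn, Apoa4, Rhox5 and Trap1a together. Where in the embryo the cells lay was not measured.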

How the data were processed

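Gene by barcode matrices of UMI counts were used as the authors deposited them, 27998 genes each, with every barcode (737280) except in P3, whose matrix lists 10964 barcodes and was filtered before deposit, made with Cell Ranger (2.1.1 in the submitters' processing notes, 3.1.0 in the headers of the 3 embryo files) on mm10. The labels name trypsin and version 2 chemistry and the study's methods collagenase II and version 3, which was not resolved. E8.5 replicate 1 was not analysed here, and no column of another sample was found (0). The members, lists and comparisons were chosen with earlier results of these data known.

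Barcodes with at least 2000 UMIs and 500 genes were kept with no mitochondrial ceiling, where the study's methods set 5% at both stages. UMIs were summed over members per library as CPM with exact 95% Poisson intervals, and fold intervals come from exact binomial bounds. A gene was tested at a mean of at least 10 CPM and called at 4-fold in both E10.5 libraries, with a floor of 3 counts per library. Medians over lists average both log2 folds. Named genes were the 272 of the 25 lists, the 10 largest folds each way among called genes, the 10 highest genes of each stage and the 10 leading genes of each cluster. Clusters came from analytic Pearson residuals (theta 100, 2000 variable genes in at least 5 cells, rule genes left out), 10 principal components, 10 neighbours and Louvain resolution 0.8. Scrublet scores marked the share of barcodes expected from loading (4.53, 11.7 and 11.4%), and members so marked were kept. The calling of genes was tested on simulated data. Libraries shared 104 to 263 barcodes, against 110 to 284 given by list size. Python 3.11.15, numpy 2.4.6, scipy 1.17.1, pandas 2.3.3, scikit-learn 1.9.0, scanpy 1.11.5 and python-igraph 0.11.9 were used.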

Additional observations from a re-analysis of the deposited data

Results flagged for a closer look

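The heart libraries held 2 barcodes with at least 10 Ttr UMIs, although hearts were not part of the comparison. In E12.5 replicate 1, 1 barcode of 10769 UMIs had 11 Ttr UMIs and 0 UMIs of Rbp4, Apoa1, Apom, Afp and Alb. In E16.5 replicate 1, 1 barcode of 30414 UMIs had 14 Ttr UMIs and 0 of the same carriers, with 146 UMIs of the collagen gene Col1a1, 75 of Col3a1, 13 of Dlk1 and 16 of Tnnt2. Neither passed the rule, and the source of their Ttr was not tested.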

How the results depend on the processing

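No paired analysis was made, because the sources used here link no E8.5 library to an E10.5 library, and no test was made. With Ttr of at least 20 UMIs, E10.5 replicate 2 held 14 members. Genes called higher numbered 144 with a 1 CPM filter and 306 at 2-fold. Genes called lower numbered 644 at 2-fold, 52 with cells thinned to 5000 UMIs and 42 with E8.5 members outside clusters 2 and 3, an alternative added after the data were seen. Leaving out E10.5 replicate 1 or 2 gave 88 to 117 higher and 244 to 342 lower, the 342 without replicate 2. Lower calls made up 71.5% of calls in the comparison reported, 47.3% thinned, 58.3% with the 1 CPM filter, 79.5% without replicate 2, 63.4% with Ttr of at least 20 UMIs and 30.2% outside clusters 2 and 3. Thinning moved the median log2 fold of all genes from -0.13 to 0.12. With fewer cells at E10.5, the floor of 3 counts stands for more CPM there, which lifts the folds of genes at the floor. The part of this in the move was not tested. With a ceiling of 5% mitochondrial UMIs, 65 of 76 E8.5 members were left, 76 genes were called higher and 151 lower, Cubn at E8.5 stood at 345 CPM, and Nr5a2, Tfpi, Slc39a8, Hmox1, Ctsb and Apoa4 were no longer called. At resolution 1.2 E10.5 members fell into 5 clusters. At resolution 0.4 E8.5 members fell into 3 clusters of 38, 20 and 18 cells, and E10.5 members into 2 of 43 and 17.

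When thinned, the sign of the log2 fold turned for Pdgfra (1.29) and Hmox1 (0.29). Outside clusters 2 and 3 it turned for Lrp2 (1.03), Pdgfra (0.83), Slc13a4 (0.0899), Apoc2 (0.46) and Smlr1 (0.46). There it also turned for Apoa1 (0.23), Apoc3 (0.83), Apoa4 (0.0810) and Apob (0.35). The 1.29 of Pdgfra and the 0.46 of Apoc2 and Smlr1 are ratios of the 3-count floors alone. Hmox1 when thinned, and Pdgfra and Apoc3 outside clusters 2 and 3, also rested on that floor. For these genes the turn is not a measured rise at E10.5. For Apoa4 and Apob the 2 E10.5 libraries differed in sign. The alternative outside clusters 2 and 3 holds fewer visceral endoderm cells by construction, and the cause was not tested elsewhere. Of 59 list or named genes called, 53 to 59 were still called under the other member rules, the mitochondrial ceiling, scalings and the subtraction of free RNA, 37 when thinned and 26 outside clusters 2 and 3. The E8.5 values of Alb, Cebpa and Serpina6 rest on 2, 2 and 1 UMIs, which sets the width of their intervals.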
